A study of Mus musculus with 14 samples.

Results

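The EGF family ligands and the ErbB receptors are described here through 10 genes chosen by name: the ligand genes Areg, Ereg, Hbegf, Tgfa, Btc and Epgn, the receptor genes Egfr, Erbb2 and Erbb3, and Errfi1, which encodes an inhibitor of the receptors. All 10 were found among the 37680 genes of the count table by their Ensembl identifiers. Of these 10 genes, 9 passed the filter on low counts, at least 10 counts in at least 3 libraries, and were tested together with the other genes that passed it, 15127 in all. Epgn did not pass and is given as counts only.

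RNA-seq was done on crypt epithelium that had been released with EDTA from the whole colon of mice on a C57/BL6 enriched background. WT mice on water gave 4 libraries, mice labelled Smad4 knockout on water gave 4, and WT and Smad4 knockout mice after 2.5% DSS in the drinking water for 3 d gave 3 each. DSS, dextran sulphate sodium, is a polymer that damages the lining of the colon. In the knockout, called Smad4 IEC-KO or KO below, floxed Smad4 alleles are deleted by a tamoxifen-inducible Cre (Cre-ERT2) that the Villin promoter drives in intestinal epithelial cells. Tamoxifen was injected on 4 consecutive days, and the mice were 8 to 14 weeks old. The methods state that the transgene was brought into conditional mutants and controls, and whether the WT mice also received tamoxifen is not given in the sources used here. Villin is active along the whole intestinal epithelium, so the deletion is not limited to 1 epithelial cell type, and cells that escape it stay in the sample. The labels number the replicates without saying that each was a separate mouse, so the p-values measure the spread between these libraries. In such bulk samples, fewer cells that express a gene and less RNA per cell cannot be told apart.

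EGF family ligands are made as membrane-anchored precursors, and metalloproteases of the ADAM family cut them off the cell surface. A ligand that binds EGFR makes it pair with another ErbB receptor and switches on its kinase, which feeds the RAS-MAPK and PI3K pathways. ErbB2 binds no ligand of its own and works as the partner of the other receptors, and ErbB3 has little kinase activity and binds neuregulins. In the intestine this signalling is known for driving the proliferation of crypt cells and the repair of the mucosa after injury, and Areg and Ereg are known as genes that injured epithelium expresses. SMAD4 is the partner that receptor-activated SMADs of the TGF-β and BMP pathways share on DNA.

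The knockout was checked first with Smad4 itself (ENSMUSG00000024515). Smad4 had 122, 159, 135 and 118 counts per 1000000 counts of the library, with TMM-normalized library sizes (CPM), in WT on water, replicates 1 to 4, and 170, 182 and 174 in WT after DSS. It had 43.9, 40.4 and 42.8 in KO after DSS. On water, KO replicates 2, 3 and 4 had 37, 46.8 and 35.1, and the library labelled KO water replicate 1 had 158, within the WT levels. That library therefore goes against its label, it is kept under its label, and the log2 fold changes of members that rest on KO water libraries are given below with and without it where they are described. Legends of the study's RNA-seq figures that show the water groups give 4 replicates for WT on water and 3 for KO on water. They do not say which of the 4 KO water libraries were used. After DSS the log2 fold change of Smad4, KO against WT, was -2.05 (SE 0.09, edgeR adjusted p = 1.5e-05). On water it was -0.95 (edgeR adjusted p = 0.23), and -1.75 without KO water replicate 1 (edgeR adjusted p = 0.0082).

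The libraries held 12882827 to 26087231 counts. Mitochondrial genes held 4.05% to 8.23% of the counts in 11 libraries and 30.6%, 32.8% and 21.4% in WT water replicate 3, WT water replicate 4 and KO water replicate 4. The 7 epithelial markers (Epcam, Krt8, Krt18, Krt19, Cdh1, Cldn7 and Vil1) were present in every library, with a summed level of 11918 to 19264 CPM, and the squamous markers Krt5, Trp63 and Sprr3 had no count in any. The summed level of 7 fibroblast markers was low but higher in KO, at 10.7 to 32.8 CPM against 6.68 to 10.1 in WT on water and at 14.1 to 21.4 against 8.36 to 10.1 in WT after DSS. Of these 7, Lum and Pdgfra were under the filter and none was at 0 in every library. Pdgfrb had the most counts of the 7 in every WT library. On water it had 56 to 202 counts in WT and 129 to 189 in KO, and after DSS 165 to 196 and 136 to 215. The summed level of 5 absorptive colonocyte markers was 1830 to 2450 in KO and 2813 to 3940 in WT on water. After DSS 3 further marker sums did not overlap between the genotypes, each lower in KO: the epithelial sum (15735 to 16743 CPM against 17147 to 17680), that of 5 goblet cell markers (9284 to 10558 against 12543 to 14267) and that of 4 tuft cell markers (26.9 to 27.8 against 31.4 to 36.2). In all 14 marker lists were compared, of which 2 did not overlap between the genotypes on water and 4 after DSS. Of single genes, 5.18% were higher and 5.2% lower in KO without overlap on water, and 10.4% and 11.4% after DSS. Not each member follows its sum, since the counts of Muc2 overlap after DSS, those of Slc26a3 on water and those of Pdgfrb in both. The part of these markers in the genotype differences below was not tested.

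Gene positions are given on mm9. Outside the ligand cluster on chromosome 5 the members are spread over the genome, with Tgfa on chromosome 6 (86145420 to 86225151), Hbegf on chromosome 18 (36664583 to 36675459), Egfr on chromosome 11 (16652206 to 16818161), Erbb2 also on chromosome 11 (98273784 to 98299030), Erbb3 on chromosome 10 (128004579 to 128026708) and Errfi1 on chromosome 4 (150228028 to 150243001).

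Of the 6 ligand genes, 4 lie next to each other. Epgn (chromosome 5, 91456490 to 91464241), Ereg (91503643 to 91522675), Areg (91568641 to 91577458) and Btc (91786287 to 91831939, on the other strand) fill a stretch of 375 kb with 0 other protein-coding genes between them. The gap is 39.4 kb between Epgn and Ereg, 46 kb between Ereg and Areg, and 209 kb between Areg and Btc.

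Promoters, taken as the 250 bases before a gene's start, were read from RefSeq on GRCm38.p6, a later build than the one used for the counts. Entries were used for 7 of the 10 genes, and the promoters of Hbegf, Ereg and Erbb3 were not analysed here. A cAMP response element, TGACGTCA, which reads the same on both strands, is present in the promoter of Areg, 61 bases before the start, and in the second of 2 promoter entries of Errfi1, 51 bases before the start. It was found in 508 of 32851 promoters (1.55%). Both are shown because they hold the element, which the capitals mark. The Areg window is chr5:91139349-91139598 on the plus strand and the Errfi1 window is chr4:150854820-150855069 on the plus strand.
Areg: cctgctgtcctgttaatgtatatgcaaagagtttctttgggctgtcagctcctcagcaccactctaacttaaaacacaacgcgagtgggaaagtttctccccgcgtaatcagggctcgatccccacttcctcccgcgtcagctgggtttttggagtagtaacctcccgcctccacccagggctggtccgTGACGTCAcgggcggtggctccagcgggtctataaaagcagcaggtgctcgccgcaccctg
Errfi1: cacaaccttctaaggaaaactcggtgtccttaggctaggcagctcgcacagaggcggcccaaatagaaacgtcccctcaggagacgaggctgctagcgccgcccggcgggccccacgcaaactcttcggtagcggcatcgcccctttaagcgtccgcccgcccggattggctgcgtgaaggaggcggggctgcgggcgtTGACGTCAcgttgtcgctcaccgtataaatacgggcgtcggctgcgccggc

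The palindrome to which SMAD complexes bind, GTCTAGAC, was found in 0.167% of all promoters and in none of those of the 7 members searched. The shorter SMAD site CAGAC, searched on both strands, was found in 42.2% of all promoters and, of these 7 members, in Tgfa. The AP-1 site TGANTCA was found in 6.75% of all promoters and in none of these 7 members. A match is a stretch of letters and shows no binding.

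Levels were compared between genes as CPM per kb of exon. The receptors Erbb3 and Erbb2 led, with 41.9 ± 6.94 and 34.6 ± 6.32 (SD, n = 14), and Erbb3 was the higher of the pair in 11 of 14 libraries. The 3 in which Erbb2 was higher are the 3 with over 20% mitochondrial counts. Egfr, the receptor that binds all 6 ligands, had 3.39 ± 0.553 (SD, n = 14) and stood below Tgfa in 13 of 14 libraries. Among the ligands the order was Areg with 15.3 ± 5.44, Hbegf with 8.72 ± 3.33, Tgfa with 6.61 ± 1.99, Btc with 1.94 ± 0.616, Ereg with 0.49 ± 0.356 and Epgn with 0.129 ± 0.123 (SD, n = 14 each). Errfi1, with 11.8 ± 2.05, stood between Areg and Hbegf. Each gene exceeded the next in the order in 11 to 14 of 14 libraries, while the ranges over the 14 libraries overlapped for every pair of neighbours.

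**Figure D1:**
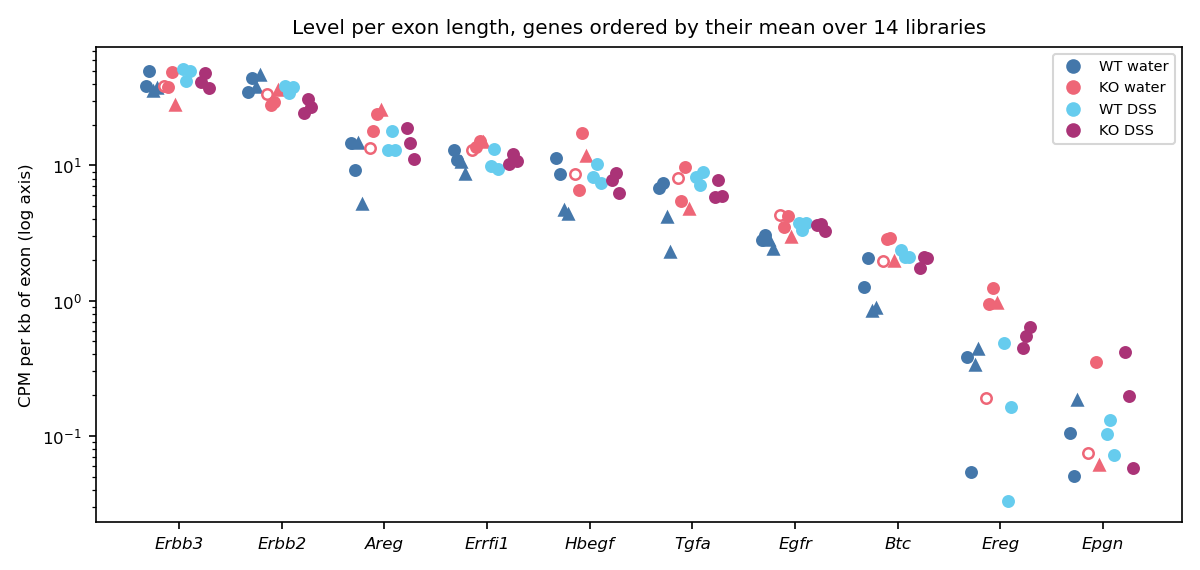
CPM per kb of exon on a log axis for each of the 14 libraries, genes ordered by their mean. Colours give the group, the open circle is the library labelled KO water replicate 1, triangles are the 3 libraries with over 20% mitochondrial counts, and libraries in which Epgn had no count are not drawn. Within every library Erbb3 and Erbb2 are above every ligand, and the mean of Egfr lies between those of Tgfa and Btc.

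Summed over the 6 ligands, the level per kb was 25 ± 8.87 in WT on water, 41.9 ± 10.9 in KO on water (SD, n = 4 each), 33.9 ± 3.29 in WT after DSS and 31.8 ± 4.90 in KO after DSS (SD, n = 3 each). Areg made up 33.6% to 58.9% of this sum, Hbegf 19% to 33.2% and Tgfa 10.6% to 28.1% over the 14 libraries. Areg thus had the highest mean level per length of the ligands in these epithelia. On water the sum was 34.5, 27.4, 24.8 and 13.2 in WT, replicates 1 to 4, and 32.5 in the library labelled KO replicate 1 and 33.9, 55.9 and 45.1 in KO replicates 2 to 4. The groups overlap, since WT replicate 1 is above KO replicates 1 and 2, and the 2 lowest WT sums are those of the WT libraries with over 20% mitochondrial counts. The neuregulins and the remaining ligand EGF were scarce: Egf had 1.71 to 5.61 CPM and Nrg4, a ligand of ErbB4, 0.733 to 3.4. Nrg1 had 0 to 3 counts and Nrg2 0 to 4 counts per library, Nrg3 had none, and Erbb4 had 1 count in 1 library.

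The first question was whether loss of Smad4 changes the family in the uninjured epithelium. No member passed the threshold for KO against WT on water (edgeR adjusted p below 0.05), where 1 of 15127 genes did (0.00661%), and none passed with DESeq2, which called 5.08% of the genes. At an unadjusted p below 0.05 were 6 of 9 members, against 20.4% of all genes tested, with Areg, Ereg, Btc, Egfr and Errfi1 higher and Erbb2 lower in KO. Without KO water replicate 1 the 6 became 4 (Areg, Ereg, Btc and Errfi1), against 18% of all genes. All 5 ligands tested had a positive log2 fold change, with a median of 0.89 (1.02 without KO water replicate 1), where the median over all genes was -0.007 and 49.4% of genes were positive.

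Areg encodes amphiregulin. It had 17.5, 11, 17.5 and 6.2 CPM in WT on water and 16.2, 21.6, 29 and 30.8 in KO on water, replicates 1 to 4. The lowest KO value is the library labelled KO water replicate 1, within the WT levels, and the other 3 KO libraries lie above all 4 WT libraries. The log2 fold change was 0.89 (SE 0.32, 95% interval 0.20 to 1.59, edgeR adjusted p = 0.18). Without KO water replicate 1 it was 1.05 (edgeR adjusted p = 0.19). With the other 13 libraries in 1 edgeR model it was 1.04 with an adjusted p of 0.046, which passed the threshold, in a model that called 7.61% of all genes.

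Ereg encodes epiregulin. It had 1.59, 0.222, 1.38 and 1.82 CPM in WT on water, 0.792 in the library labelled KO water replicate 1, and 3.87, 5.14 and 3.96 in KO replicates 2 to 4. These last 3 were above every WT library, with 65 to 125 counts each against 5 to 43 in WT, so the WT values rest on few reads. The log2 fold change was 1.48 (SE 0.67, 95% interval 0.02 to 2.93, edgeR adjusted p = 0.24), and 1.81 without that library (edgeR adjusted p = 0.2). Groups that did not overlap, KO higher, were seen for 5.18% of all genes with all 8 libraries and for 7.26% without KO water replicate 1. Of the 9 members Errfi1 was such a gene in the first case, and Areg, Ereg and Errfi1 were in the second.

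Btc encodes betacellulin. It had 3.52, 5.72, 2.36 and 2.46 CPM in WT and 5.46, 7.99, 8.19 and 5.45 in KO on water. The groups overlap through WT replicate 2 alone. The log2 fold change was 0.93 (SE 0.35, edgeR adjusted p = 0.19), and 1.02 without KO water replicate 1 (edgeR adjusted p = 0.22).

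Hbegf, which encodes the heparin-binding ligand, had 26.8, 20.5, 11.2 and 10.4 CPM in WT and 20.6, 15.6, 41.6 and 27.7 in KO on water. Tgfa, which encodes TGF-α, had 25.6, 27.9, 15.6 and 8.66 in WT and 30.3, 20.7, 36.3 and 18 in KO. In both genes the groups overlap widely, with log2 fold changes of 0.61 and 0.43 (edgeR adjusted p = 0.35 and 0.5). Without KO water replicate 1 they were 0.71 and 0.36 (edgeR adjusted p = 0.35 and 0.65). Epgn, which encodes epigen, had 0 to 5 counts in WT and 0 to 15 in KO on water.

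The lowest values of several ligands were in libraries with much mitochondrial RNA. Tgfa was lowest of all 14 libraries in the 3 with over 20% mitochondrial counts (8.66, 15.6 and 18 CPM, against 20.7 to 36.3 in the others), and Hbegf and Btc were lowest in the 2 such WT libraries. Areg was both lowest and highest of all in such libraries, at 6.2 CPM in WT water replicate 4 (32.8% mitochondrial) and at 30.8 in KO water replicate 4 (21.4%). With the mitochondrial share as a covariate the log2 fold change, KO against WT on water, was 0.88 for Areg, 1.83 for Ereg, 0.68 for Btc, 0.39 for Hbegf and 0.04 for Tgfa.

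With only the libraries under 20%, 2 WT and 3 KO, the values were 0.65 for Areg, 1.84 for Ereg, 0.65 for Btc, 0.14 for Hbegf and 0.12 for Tgfa (edgeR adjusted p from 0.24 to 0.86), and none of the 5 ligands was at an unadjusted p below 0.05. Without KO water replicate 1 as well, 2 libraries against 2, they were 0.83, 2.30, 0.81, 0.28 and 0.10 in the same order (edgeR adjusted p from 0.11 to 0.85). Of the 5 ligands Areg and Ereg were then at an unadjusted p below 0.05 (0.021 and 0.027 with edgeR), as were 27.3% of all genes.

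The letter prefix of the deposited library names is shared between the genotypes on water by 2 WT and 3 KO libraries. The fit with the prefix as a block used these libraries alone. They are WT replicates 3 and 4, with 30.6% and 32.8% mitochondrial counts, and KO replicates 1, 2 and 4, with 5.02%, 8.1% and 21.4%. The part of this share in the values of the fit was not tested. With the prefix as a block the log2 fold change of Ereg was 0.91 (edgeR adjusted p = 0.61), lower than with all water libraries. Those of Hbegf, Tgfa and Btc were 1.01, 0.86 and 1.35 (edgeR adjusted p = 0.12, 0.15 and 0.18). Areg had 0.96 with this block (edgeR adjusted p = 0.27).

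**Figure D2:**
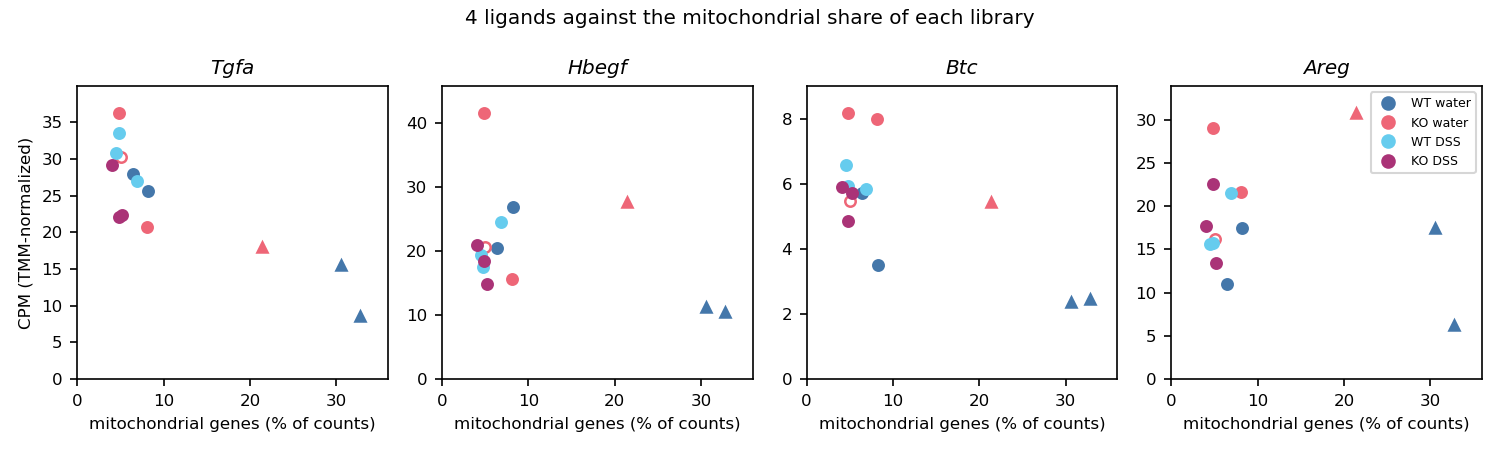
CPM of 4 ligand genes against the share of each library's counts on mitochondrial genes, 1 point per library, colours by group, open circle the library labelled KO water replicate 1, triangles the 3 libraries over 20%. The 3 triangles are the lowest points for Tgfa, and for Areg 1 of them is the lowest point and another is the highest.

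Among the receptors on water, Egfr had 31.9, 34.6, 31.8 and 27.1 CPM in WT and 48.7, 39.6, 48 and 33.3 in KO. The groups overlap only through KO replicate 4, and the log2 fold change was 0.44 (SE 0.17, edgeR adjusted p = 0.2). The highest of the KO values belongs to the library labelled KO water replicate 1, whose Smad4 is at the WT level, and without it the log2 fold change was 0.37 (edgeR adjusted p = 0.33).

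Erbb2 had the opposite sign, with 182, 230, 199 and 242 CPM in WT and 177, 145, 153 and 190 in KO on water. Only WT replicate 1 lies within the KO range. The log2 fold change was -0.36 (SE 0.16, edgeR adjusted p = 0.23), and -0.39 without KO water replicate 1 (edgeR adjusted p = 0.3). Erbb3 had 231, 301, 215 and 226 in WT and 235, 229, 298 and 170 in KO, and its log2 fold change was -0.06 with a 95% interval of -0.48 to 0.36, and also -0.06 without KO water replicate 1 (edgeR adjusted p = 0.91).

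Errfi1, also known as Mig6, encodes a protein that binds the kinase domain of the receptors and blocks it, and is itself made in response to their signal. It had 46.2, 39.5, 37.9 and 30.9 CPM in WT and 46.5, 49.3, 54.3 and 53.6 in KO on water. Every KO library was above every WT library, with KO replicate 1 and WT replicate 1 nearly level. The log2 fold change was 0.40 (SE 0.16, 95% interval 0.04 to 0.75, edgeR adjusted p = 0.2), and 0.44 without KO water replicate 1 (edgeR adjusted p = 0.25). With only the libraries under 20% mitochondrial counts it was 0.23 (unadjusted p = 0.2 with edgeR), 0.28 without KO water replicate 1 as well (0.14), and 0.33 with the mitochondrial share as a covariate (0.071), none below 0.05.

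**Figure D3:**
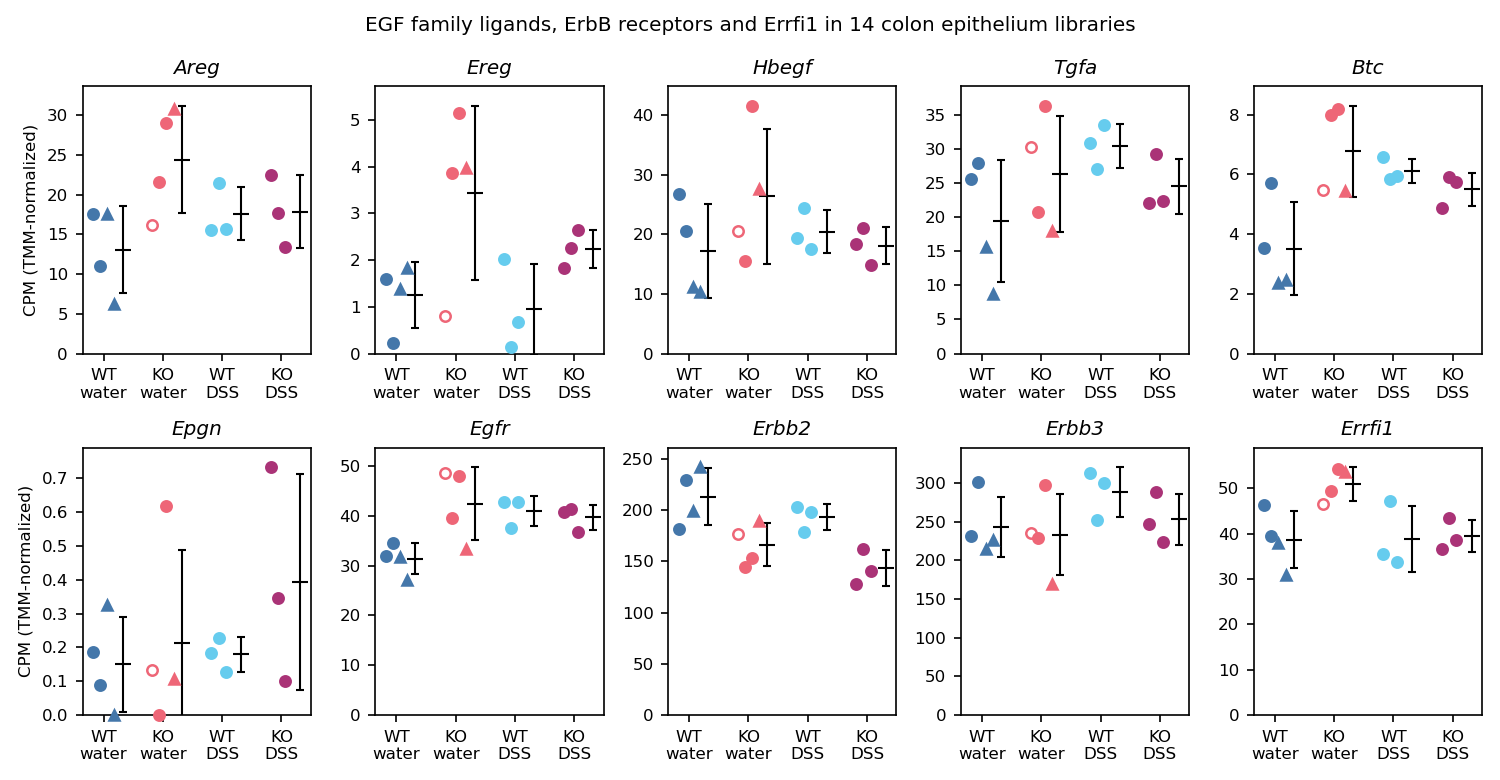
TMM-normalized CPM of the 10 genes in each library, by group, with the mean and SD beside the points (SD bars that would pass below 0 end at the axis). Open circles are the library labelled KO water replicate 1 and triangles are the 3 libraries with over 20% mitochondrial counts. The KO water points other than the open circle lie above all WT water points for Areg, Ereg and Errfi1, and the KO DSS points lie below all WT DSS points for Erbb2.

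After DSS the log2 fold changes between the genotypes lay between -0.31 and 0.03 for 4 of the 5 ligands tested. No member passed the threshold with edgeR for KO against WT after DSS, where 113 of 15127 genes did (0.747%). At an unadjusted p below 0.05 was Erbb2 alone, 1 of 9 against 15.4% of all genes. DESeq2 called Erbb2 too (adjusted p = 0.019), among 3.3% of all genes.

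Erbb2 had 203, 179 and 198 CPM in WT and 128, 162 and 141 in KO after DSS. The highest KO library was below the lowest WT library, as was so for 11.4% of all genes. The log2 fold change was -0.43 (SE 0.11, 95% interval -0.67 to -0.18, edgeR adjusted p = 0.13). This is the same sign and nearly the size of the difference on water, from libraries that the water comparison does not share. In the edgeR model of all 14 libraries the value was the same, -0.43, with an adjusted p of 0.84.

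Erbb3, its preferred partner, had 313, 252 and 300 CPM in WT and 247, 289 and 224 in KO after DSS, and the groups overlap (log2 fold change -0.18, edgeR adjusted p = 0.52). The ratio of Erbb2 to Erbb3 CPM was 0.649 to 0.708 in WT and 0.517 to 0.628 in KO after DSS, and on water 0.764 to 1.07 in WT and 0.515 to 1.12 in KO. The 3 highest ratios, 0.925 and 1.07 in WT and 1.12 in KO, belong to the 3 libraries with over 20% mitochondrial counts, and the library labelled KO water replicate 1 had 0.752. Egfr had 42.7, 37.6 and 42.7 in WT and 40.8, 41.4 and 36.8 in KO, with a log2 fold change of -0.04 and a 95% interval of -0.27 to 0.18.

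Areg had 15.6, 21.5 and 15.7 CPM in WT and 22.5, 17.7 and 13.4 in KO after DSS. The groups overlap fully, and the log2 fold change was 0.03 with a 95% interval of -0.42 to 0.48, so a rise of more than 1.39-fold lies outside the interval. Ereg had 2.02, 0.137 and 0.674 in WT and 1.83, 2.26 and 2.64 in KO, and 1 WT library lies within the KO range. Its log2 fold change was 1.25 (SE 0.64, 95% interval -0.17 to 2.68, edgeR adjusted p = 0.38), with 3 to 44 counts per library in WT.

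Tgfa had 30.8, 27 and 33.5 CPM in WT and 22.1, 29.2 and 22.3 in KO after DSS, a log2 fold change of -0.31 (edgeR adjusted p = 0.33). Hbegf, Btc and Errfi1 had log2 fold changes of -0.18, -0.15 and 0.03, with groups that overlap (edgeR adjusted p = 0.65, 0.73 and 0.95). Epgn had 3 to 5 counts in WT and 2 to 14 in KO.

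**Figure D4:**
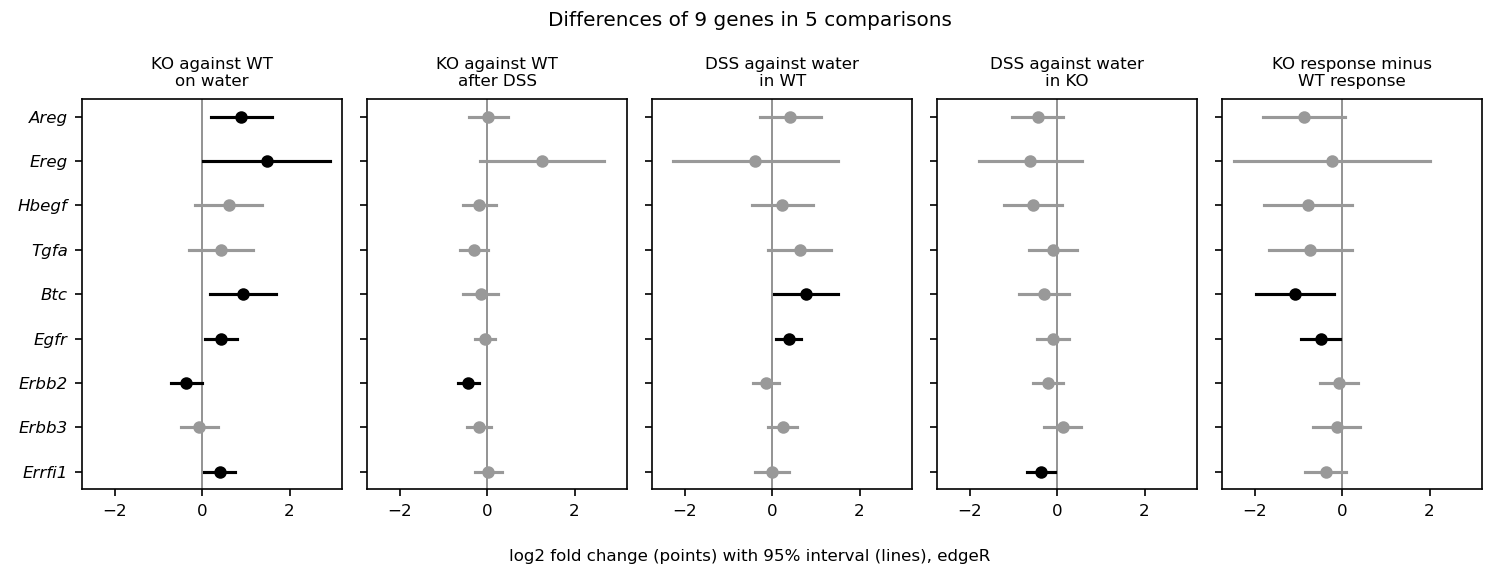
Log2 fold changes of the 9 genes tested (points) with their 95% intervals (lines) from edgeR in 5 comparisons, black where the unadjusted p is below 0.05 and grey elsewhere. No member passed the adjusted threshold in any of the 5. On water 5 of the 9 are black and above 0, and in the difference of the responses all 9 points are below 0.

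The next question was how each genotype responds to DSS. In WT no gene passed the threshold with edgeR (0 of 15127, 0%), 24.2% were at an unadjusted p below 0.05, and DESeq2 called 11.7%. Of the members, DESeq2 called none, and Btc and Egfr were at an unadjusted p below 0.05, both higher after DSS. For both, all 3 DSS libraries were above all 4 water libraries, as were those of 12.8% of all genes. Btc had 6.57, 5.85 and 5.94 CPM after DSS, against 2.36 to 5.72 on water (log2 fold change 0.77, SE 0.33, edgeR adjusted p = 0.19). Egfr had 37.6 to 42.7 after DSS against 27.1 to 34.6 on water (log2 fold change 0.39, SE 0.13, edgeR adjusted p = 0.13).

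The WT water group holds both WT libraries with over 20% mitochondrial counts, and no DSS library is above 6.87%. With the mitochondrial share as a covariate, the log2 fold change after DSS in WT went from 0.77 to 0.33 for Btc, from 0.39 to 0.27 for Egfr and from 0.63 to 0.07 for Tgfa. With only the libraries under 20% they were 0.41, 0.30 and 0.18. Areg, the ligand best known as an injury response, had a log2 fold change of 0.42 (SE 0.32, 95% interval -0.28 to 1.12, edgeR adjusted p = 0.44) and Ereg -0.38 (SE 0.84). Hbegf had 0.23, Erbb2 -0.14, Erbb3 0.25 and Errfi1 0.00, none with an edgeR adjusted p below 0.34.

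In KO, DSS against water had 1 gene past the threshold (0.00661%), which is no member, and 6.37% of genes at an unadjusted p below 0.05. DESeq2 called 0.469% of the genes and no member. Errfi1 alone of the members was at an unadjusted p below 0.05. It had 36.6, 43.4 and 38.5 CPM after DSS against 46.5 to 54.3 on water, all below, as was so for 4.28% of all genes. Its log2 fold change was -0.36 (SE 0.14, edgeR adjusted p = 0.76), and -0.41 without KO water replicate 1 (edgeR adjusted p = 0.74). Areg, Ereg and Hbegf had -0.44, -0.61 and -0.54, and without KO water replicate 1 they had -0.60, -0.94 and -0.64, with edgeR adjusted p from 0.74 to 0.78. Without that library Areg, Ereg and Errfi1 were at an unadjusted p below 0.05, against 6.45% of all genes, and the Ereg groups no longer overlapped (1.83 to 2.64 after DSS and 3.87 to 5.14 on water), as was so, KO DSS lower, for 6.47% of all genes. The KO water and KO DSS libraries share no letter prefix in their deposited names, so a batch that the prefix may stand for and the treatment cannot be told apart here.

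The difference of the 2 responses, KO minus WT, was negative for all 9 members, where 49.4% of all genes were positive. The median of the members was -0.48 on the log2 scale (-0.57 without KO water replicate 1) against -0.009 over all genes. Of 24 alternatives the sign changed in 4 for Ereg, in 2 for Erbb2 and in 2 for Erbb3. No member passed the threshold, 1 gene of 15127 did (0.00661%), and with DESeq2 no member did either. At an unadjusted p below 0.05 were Btc (-1.07, SE 0.42) and Egfr (-0.48, SE 0.21), both with an edgeR adjusted p of 0.64, against 7.5% of all genes. Without KO water replicate 1 they were -1.16 and -0.41 (edgeR adjusted p = 0.58 and 0.61), and all 9 members were again negative. Areg had -0.87 (SE 0.44) and -1.02 without KO water replicate 1 (edgeR adjusted p = 0.64 and 0.58), and without that library Areg and Btc were the members at an unadjusted p below 0.05, against 8.43% of all genes. DESeq2 called 0.0529% of the genes here. This comparison uses the same libraries as the 4 before it and adds no libraries to them. It therefore includes WT water replicates 3 and 4, with 30.6% and 32.8% mitochondrial counts, and the KO groups that share no letter prefix.

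The other genes of the pathway were counted from lists of the ligands' shedding, the adaptors and kinases, the feedback inhibitors and the transcriptional outputs of ERK. None of the genes of these lists passed the threshold with edgeR in any of the 5 comparisons. On water, 15 of 18 feedback inhibitors tested had a positive log2 fold change (median 0.33), where 49.4% of all genes did. Of all genes 10.8% were higher and 9.59% lower in KO at an unadjusted p below 0.05, and of the 18 feedback inhibitors 6 were higher and 0 lower. Of 15 ERK outputs, 12 were positive (median 0.41), with 4 higher and 0 lower at an unadjusted p below 0.05. Of 22 adaptors and kinases, 13 were positive (median 0.08), with 4 higher and 2 lower at an unadjusted p below 0.05. Of 7 genes of shedding and trafficking, 5 were positive (median 0.21). The lists share some genes. In WT water replicates 3 and 4 mitochondrial genes held 30.6% and 32.8% of the counts, and in KO water replicate 4 they held 21.4%. The part of the mitochondrial share in the counts of these lists was not tested.

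Without KO water replicate 1 the counts of positive genes were again 15, 12, 13 and 5, with medians of 0.31, 0.38, 0.07 and 0.23. At an unadjusted p below 0.05 and higher were then 4 of 18 feedback inhibitors and 2 of 15 ERK outputs, against 9.4% of all genes.

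DESeq2 called 2 of the 58 genes of the 4 lists on water, some of which stand in more than 1 list (3.45% called, against 5.08% of all genes), so calls were not more frequent among them than over the whole table. Adam10, a sheddase of Btc and EGF, was higher in KO (log2 fold change 0.65, SE 0.17, adjusted p = 0.16 with edgeR and 0.024 with DESeq2), with 0.71 without KO water replicate 1 (edgeR adjusted p = 0.16). The mean of Adam10 was 105 CPM in WT on water, 164 in KO on water, 145 in WT after DSS and 160 in KO after DSS. Map2k2, which encodes the kinase MEK2, was lower (-0.69, SE 0.21, adjusted p = 0.16 with edgeR and 0.036 with DESeq2), with -0.76 without that library (edgeR adjusted p = 0.19). Both are named because DESeq2 called them, after their values were seen. After DSS, 9 of 18 feedback inhibitors and 8 of 15 ERK outputs were higher in KO than in WT, with medians of -0.02 and 0.02, and DESeq2 called Etv4 alone of the 58 (1.72%, against 3.3% of all genes). In WT, DSS against water, DESeq2 called 9 of the 58 in all (15.5%, against 11.7% of all genes). They were 2 of 15 ERK outputs, 2 of 18 feedback inhibitors, 2 of 22 adaptors and kinases and 3 of 7 genes of shedding and trafficking. These last 3 were Adam9 and Adam10, higher after DSS, and Rhbdf1, lower. They and the ERK outputs are named after their values were seen. Ccnd1, which encodes cyclin D1, was higher after DSS (log2 fold change 1.14, SE 0.22, adjusted p = 0.088 with edgeR and 0.00041 with DESeq2). Etv4, which encodes an ETS factor, was lower (-1.13, SE 0.29, adjusted p = 0.091 with edgeR and 0.0054 with DESeq2).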

How the data were processed

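RNA was poly(A)-selected and sequenced in 14 libraries of colon epithelium. The authors aligned reads to mm9 with HISAT2, used featureCounts to count them on genes and deposited these raw counts, which are whole numbers. Whether the counting used strand is not given in the sources used here. The total count per library, 12882827 to 26087231, limits the precision of genes with few counts, such as Ereg and Epgn. Gene positions and exon lengths are from GENCODE M1 (37310 of 37680 genes matched).

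Groups are those of the deposited labels. CPM used TMM factors over 14 libraries. A gene entered the tests with 10 counts or more in 3 libraries or more. Tests used edgeR 4.0.16 (quasi-likelihood, Benjamini-Hochberg over 15127 genes, threshold 0.05) in R 4.3.3, with the libraries of the 2 groups compared, since the study's methods tested pairwise. The difference of the responses used all 14. Alternatives were DESeq2 1.42.0, 1 model of all libraries, RLE factors, other filters, blocks of replicate number and of the letter prefix of the library name, and each library left out. Except for the difference of the responses, the prefix setting kept only libraries whose prefix both groups hold. For KO against WT after DSS and for DSS in WT this left the prefix D alone, so no block was fitted there. The 13-library model and those on the mitochondrial share were chosen after seeing the data. The genes, the pathway and marker lists and the tests were chosen with earlier results of these data known. All 10 members are named, and genes of the pathway lists where called with no overlap between groups, which none was with edgeR. Some genes that DESeq2 called were added after their values were seen. Of 19 feedback inhibitors 18 were found and tested. In simulated data of 15127 genes, 100 were given a log2 fold change of 1 and another 100 a log2 fold change of 2. Of those with 1, edgeR recovered 37 for KO against WT on water and 86 for KO against WT after DSS. It recovered 65 for DSS in WT and 63 for DSS in KO. False calls were 9, 16, 12 and 7 in the same order. Whether these rates hold for the single members, such as Ereg with its few counts, was not tested. Python 3.11.15 was used for the tables.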

Additional observations from a re-analysis of the deposited data

Results flagged for a closer look

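In the library labelled KO water replicate 1 the Smad4 level was 158 CPM, far above the other 3 libraries of that group. Its gap to the nearest of them was 0.905 of the group's range, past Dixon's limit for 4 samples. Of 22 groups of 4 libraries tested this way, over the members and Smad4, this was the only one past the limit, and chance gives about 1 in 20.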

How the results depend on the processing

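Over all alternatives the members' log2 fold changes were recomputed 864 times: 824 kept their sign without a call, 2 became calls and 38 changed sign. In these numbers the fit without WT DSS replicate 3 is counted again as the prefix setting for KO against WT after DSS. The 2 calls are Erbb2 after DSS with DESeq2 (members called 1 against 0) and Areg on water in the 13-library model (members called 1 against 0). No alternative called a member in the other 3 comparisons. All values that changed sign had small or imprecise main values, and their cause was not tested. With the name prefix setting, for KO against WT after DSS, they were Areg -0.05 and Errfi1 -0.06, in the same fit as without WT DSS replicate 3. For DSS in WT, with the libraries of prefix D alone and no block, they were Ereg 0.23, Hbegf -0.11 and Errfi1 -0.05. For the difference of responses, with a prefix block, they were Ereg alone, at 0.15. With the mitochondrial share as covariate they were Ereg 0.12, Hbegf -0.27 and Errfi1 -0.15 (DSS in WT), Erbb3 -0.05 (DSS in KO) and Erbb3 0.05 (difference). With only libraries under 20% mitochondrial counts, for DSS in WT, they were Ereg 0.03, Hbegf -0.21 and Errfi1 -0.14. With those and without KO water replicate 1 they were Erbb3 -0.05 and Smad4 0.02 (DSS in KO) and Erbb2 0.03 (difference). Errfi1 for DSS in WT was -0.01 with at least 50 counts and -0.01 without mitochondrial genes, and Smad4 for DSS in KO was 0.10 in the 13-library model and without KO water replicate 1.

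Leaving out 1 library at a time gave these ranges where the sign changed. For KO against WT after DSS they were -0.17 to 0.20 for Areg, -0.10 to 0.01 for Egfr and -0.06 to 0.20 for Errfi1. For KO against WT on water Erbb3 ran from -0.20 to 0.07. For DSS in WT, Ereg ran from -1.58 to 0.13 and Errfi1 from -0.16 to 0.10, and for DSS in KO Tgfa ran from -0.24 to 0.09 and Smad4 from -0.92 to 0.10. For the difference of responses the ranges were -0.75 to 0.95 for Ereg, -0.16 to 0.01 for Erbb2 and -0.26 to 0.02 for Erbb3. Values that kept their sign but moved over 1.5 times included, for KO against WT after DSS, Ereg (1.25, 0.75 to 2.43, highest without WT DSS replicate 1) and Hbegf (-0.18, -0.30 to -0.02). On water they were Hbegf (0.61, from 0.30 without KO water replicate 3 to 0.90) and Tgfa (0.43, from 0.19 without WT water replicate 4 to 0.66). For DSS in WT they included Areg (0.42, from 0.20), Hbegf (0.23, from 0.06) and Tgfa (0.63, from 0.39), each lowest without WT water replicate 4, and for DSS in KO Hbegf (-0.54, -0.72 to -0.25). None of these was a call. The genes called over the whole table, members aside, ran from 27 to 96 after DSS, 1 to 1740 on water, 0 to 418 for DSS in WT, 1 to 3 for DSS in KO and 1 to 5 for the difference. On water the count was 1740 without KO water replicate 4 and 13 without KO water replicate 1, and for DSS in WT 418 without WT water replicate 2 and 25 without WT water replicate 4. After DSS each of the 6 libraries left out lowered it from 113, to 27 without KO DSS replicate 2. For DSS in KO it was 3 without KO water replicate 3 or KO DSS replicate 1, and for the difference 5 without KO water replicate 4 and 2 without KO water replicate 2.

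Deviations of same-numbered libraries correlated at -0.08 to -0.05 (KO against WT after DSS), -0.02 to 0.35 (on water), -0.04 to 0.06 (DSS in WT) and -0.08 to 0.01 (DSS in KO). Other pairs ran from -0.01 to 0.08, -0.26 to 0.20, -0.16 to 0.14 and -0.06 to 0.12 in the same order. Outside the water comparison no same-numbered pair was above the highest other pair. On water the value of 0.35 was that of WT and KO replicates 4, which share a letter prefix and had 32.8% and 21.4% mitochondrial counts. With the replicate block no member was called, Errfi1 for DSS in WT was -0.10, and 57 genes were called after DSS, 473 on water, 54 for DSS in WT, 15 for DSS in KO and 1 for the difference.

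Counts of all genes called moved more than those of members. For KO against WT after DSS (113) they were 499 with DESeq2, 2 with all 14 libraries, 8 with 13, 345 without a filter, 42 with prefix D alone and 60 with the mitochondrial covariate. On water (1) they were 768 with DESeq2, 1276 with all 14, 1151 with 13, 55 without a filter, 125 with the prefix block, 104 under 20% mitochondrial and 943 under 20% without KO water replicate 1. For DSS in WT (0) they were 1777 with DESeq2, 457 without a filter, 9 with prefix D alone and 1 under 20%. For DSS in KO (1) they were 71 with DESeq2, 10 with all 14, 5 with 13, 19 without a filter, 2 with the covariate and 3 under 20% without KO water replicate 1, and the prefix block could not be run because the groups share no prefix. For the difference (1) they were 8 with DESeq2, 2 without a filter, 30 under 20% and 776 under 20% without KO water replicate 1.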
